A study of Glycine max with 12 samples.

Results

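The response of soybean leaves to osmotic stress was set against their response to protein misfolding at the same time and over the same solvent. Polyethylene glycol (PEG, at 10% w/v for 16 h) draws water out of the tissue, and L-azetidine-2-carboxylic acid (AZC, at 50 mM for 16 h) is a proline analog that is built into new proteins and makes them misfold. The quantity described is the PEG response minus the AZC response, where each response is the log2 ratio of treated over water control leaves, so that a value of 1 means a ratio that is 2-fold higher under PEG. These values came from 8 of the 12 hybridizations of the series, 4 with PEG and 4 with AZC, and 3902 of the 5760 spotted clones had a value in all 8. The other 4 hybridizations, of tunicamycin over DMSO, entered only the estimate of the spread.

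The plants were 3 weeks old and of the cultivar Dare, their shoots were cut below the cotyledons and stood in the solutions, and the first trifoliate leaves were taken. Each treatment had 2 biological replicates, and each replicate was hybridized in both dye orientations against water control RNA. All leaves were thus from excised shoots, the controls included. Whether PEG and AZC had their water plants in common is not given, and the spotted clones came from developing seed, so that genes used in leaves alone may be missing from the array.

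An unfolded protein in the endoplasmic reticulum (ER) is bound by chaperones such as BiP, an Hsp70 that holds exposed hydrophobic stretches, and calnexin, a lectin that retains glycoproteins until they are folded. Their genes are the classical targets of the unfolded protein response. Loss of water calls up another set, in which the late embryogenesis abundant (LEA) proteins and dehydrins, which otherwise accumulate in drying seeds, protect membranes and enzymes, and enzymes that remove aldehydes, epoxides and free iron limit oxidative damage.

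Quality differed among the 8 hybridizations. In the hybridization of PEG replicate 2 that carried treated RNA in Cy5 and had been quantified by another method than the rest, that RNA was above background on 39.8% of spots and the control RNA on 81.4%, whereas both RNAs were above background on 96.2 to 100% of spots in each of the others. Over the tested clones, the orientations of a dye-swap pair correlated at r = 0.568 and 0.502 for PEG replicates 1 and 2. For AZC replicates 1 and 2 they correlated at 0.902 and 0.859. The rank correlations of these pairs were lower, at 0.08 and 0.11 for PEG and 0.41 and 0.46 for AZC. The biological replicates correlated at r = 0.851 for PEG and 0.912 for AZC, although clones are not independent replicates. The deposited ratios were missing for 1487 clones in at least 1 orientation of PEG replicate 2, against 73 to 653 in each of the other replicates. The scanner files of the 2 orientations of PEG replicate 1 did not match their labels: the log2 of Cy5 over Cy3 should follow the deposited ratio where treated RNA was in Cy5 and mirror it where it was in Cy3, but stood at r = −0.459 and 0.489 with the files as listed and at 0.935 and −0.884 with them exchanged. The values given here rest on the deposited ratios. From the scanner files with these 2 exchanged, 110 clones were higher and 108 lower under PEG, whereas with them taken as listed 0 were higher and 9 lower. Fewer cells of a type and less RNA per cell cannot be told apart in RNA of whole leaves.

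In the difference between treatments, 108 clones were higher under PEG (2.77% of those tested) and 109 were lower (2.79%) at an adjusted p under 0.05 from limma, together 5.56%. The difference exceeded 2-fold for 67 of the higher and 68 of the lower clones and 4-fold for 17 and 21 of them. Its standard error had a median of 0.15 on the log2 scale. In all 217 called clones both PEG values lay on the same side of both AZC values, which was also the case for 1713 of the 3685 clones that were not called. Without AZC replicate 1 the counts fell to 49 higher and 47 lower, without AZC replicate 2 to 70 and 70, and without PEG replicate 2 to 60 and 67, each arm of a lone sample being assumed to vary like the other groups.

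The responses of each treatment on its own show where these differences arose. PEG raised 230 clones (5.89%) and lowered 243 (6.23%), and AZC raised 140 (3.59%) and lowered 180 (4.61%). Among the 108 clones that were higher under PEG, the median response was 0.84 under PEG and −0.20 under AZC, and PEG had raised 70 and lowered 16 of them, whereas AZC had raised 4 and lowered 42. Among the 109 that were lower under PEG, the median response was −0.31 under PEG and 0.91 under AZC, with 6 raised and 45 lowered by PEG, and 67 raised and 9 lowered by AZC. The difference was thus made up both of clones that moved under 1 treatment and of clones that moved under both to unequal extents, among them 16 of the higher and 9 of the lower clones that both treatments lowered. Only 12 clones were called in both responses with opposite sign, 5 lower under PEG and higher under AZC and 7 the other way round.

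**Figure D1:**
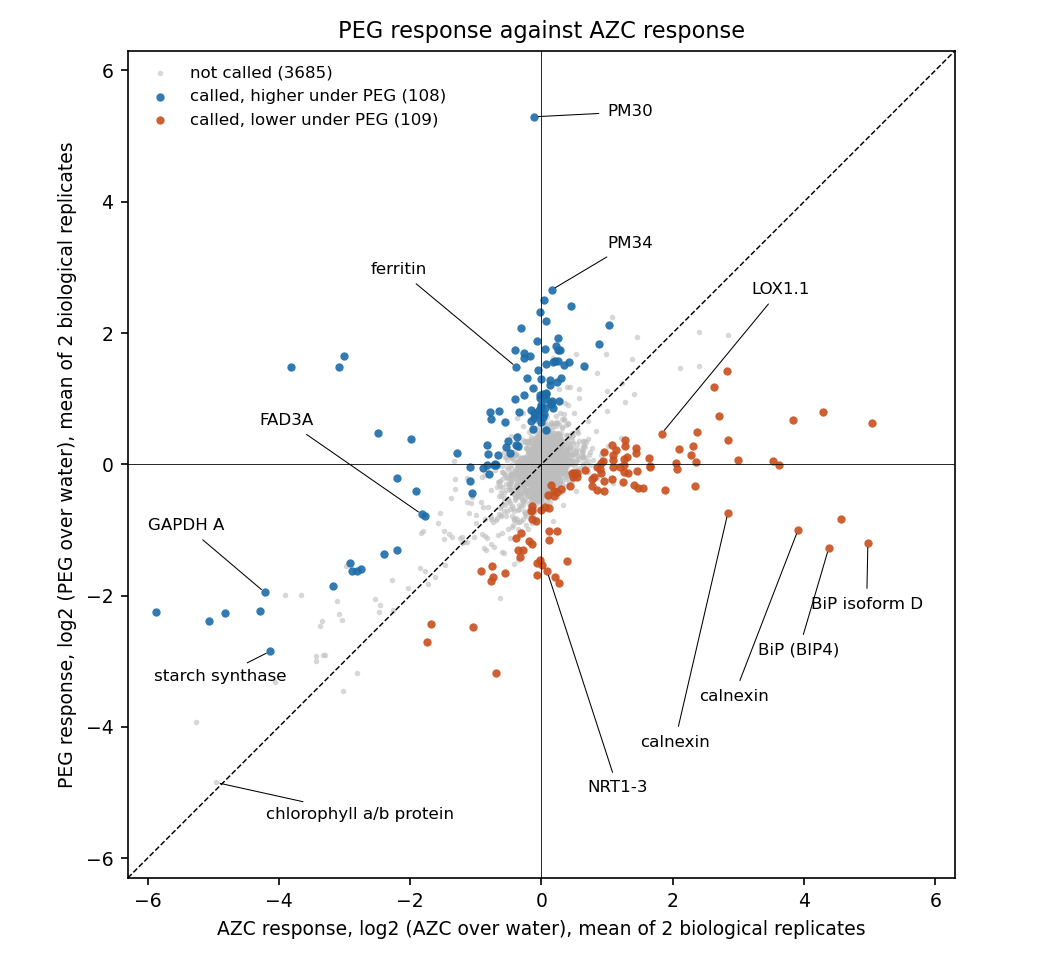
Response to PEG (vertical axis) against response to AZC (horizontal axis), both as log2 of treated over water, for 3902 clones, each the mean of 2 biological replicates. The dashed line marks equal responses; 108 clones called higher under PEG lie above it and 109 called lower lie below it, with BiP isoform D at a response of −1.20 under PEG and 4.97 under AZC.

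The ER chaperones stood at the lower end of the difference. Of 5 tested clones with a name in the platform's table, 4 were lower under PEG and none higher, against 2.79% and 2.77% of all clones. The median difference of the 5 was −4.91, against 0.04 over all clones tested. The study also lists BiP and calnexin clones that the platform's table does not name. The clone of BiP isoform D (AW509482) had ratios of −1.42, −1.26, −0.65 and −1.48 in the 4 PEG hybridizations (replicate 1 with treated RNA in Cy5 and in Cy3, then replicate 2 likewise), against 4.86, 4.72, 4.86 and 5.45 in the 4 AZC hybridizations in the same order. Each PEG hybridization was thus below water and each AZC hybridization far above it. Its difference of −6.17 (SE 0.26, adjusted p = 4.61e-06), a 72.2-fold gap, was the lowest of all 3902 clones. A clone of BIP4, another BiP gene (AW507892), averaged −1.16 and −1.41 in the PEG replicates and 4.49 and 4.26 in the AZC replicates, with a difference of −5.66 (SE 0.29, adjusted p = 1.32e-05), next in rank.

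Calnexin gave the same pattern in 2 of its 3 named clones that were tested. AW508066 stood at −0.86 and −1.15 in the PEG replicates, against 4.17 and 3.65 in the AZC replicates, a difference of −4.91 (SE 0.22, adjusted p = 7.07e-06). AW397007 had −0.60 and −0.89 under PEG and 2.91 and 2.77 under AZC, a difference of −3.58 (SE 0.27, adjusted p = 0.000195). In both, the replicates of each treatment lay close together and far from those of the other. The third clone, AW102562, had 0.05 and 0.14 under PEG and 0.00 and 0.07 under AZC, with a difference of 0.06 whose 95% interval ran from −0.22 to 0.33, so that clones carrying 1 gene name did not share a value.

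All 4 called chaperone clones were called in each response separately, lower under PEG and higher under AZC, and they were the only named clones of which this was true. They kept their calls with each replicate left out and in every other alternative but the t-test of the replicate values after adjustment and the scanner files of PEG replicate 1 as listed. Another 3 clones of the list lacked a ratio in 1 or 2 PEG or AZC hybridizations. A further BIP4 clone (AW471814) had −0.83, −1.08 and −1.42 in 3 PEG hybridizations and 4.47 to 5.41 in the 4 AZC hybridizations, whereas a further calnexin clone (AI748065) had 0.02 to 0.23 in 3 PEG hybridizations and 0.56 to 1.24 with AZC. With 1 orientation taken as enough, the difference was −6.18 for AW471814 (adjusted p = 0.00169) and −0.72 for AI748065 (adjusted p = 0.0571). PDIS-2, a protein disulfide isomerase (AW508381), had −0.21 to 0.06 in 3 PEG hybridizations and −0.17 to 0.32 in 3 AZC hybridizations.

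A stretch of 1 clone from each end of the difference, calnexin for the clones lower under PEG and the seed maturation protein PM30 for those higher, is given to show what was spotted. Both stretches come from the study's list of clone sequences, and each is open in the reading frame in which it starts. The PM30 stretch is free of stop codons in the next frame too, so that its ATG does not settle the coding frame. Capitals mark bases in runs of at least 10 that occur more than once within the stretch. Where such runs overlap they form 1 block of capitals, and all other bases are in lower case.
calnexin AW508066, bases 158 to 397 of the listed clone: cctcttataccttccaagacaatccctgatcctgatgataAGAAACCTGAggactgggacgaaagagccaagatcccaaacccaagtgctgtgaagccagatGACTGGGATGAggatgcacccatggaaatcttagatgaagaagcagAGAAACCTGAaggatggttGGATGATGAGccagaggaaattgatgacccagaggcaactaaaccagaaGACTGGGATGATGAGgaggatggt
PM30 AW397921, bases 80 to 379 of the listed clone, from an ATG: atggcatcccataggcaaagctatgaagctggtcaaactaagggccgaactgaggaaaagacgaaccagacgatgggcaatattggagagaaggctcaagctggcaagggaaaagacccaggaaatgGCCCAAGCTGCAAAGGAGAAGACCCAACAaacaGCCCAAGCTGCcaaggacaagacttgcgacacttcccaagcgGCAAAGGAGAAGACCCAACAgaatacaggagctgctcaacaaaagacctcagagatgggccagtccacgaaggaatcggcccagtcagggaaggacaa
In the calnexin stretch, 23.3% of 240 bases lay in such repeats, and in the PM30 stretch 20.0% of 300 bases. Calnexins and LEA proteins are both known for short repeated motifs.

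**Figure D2:**
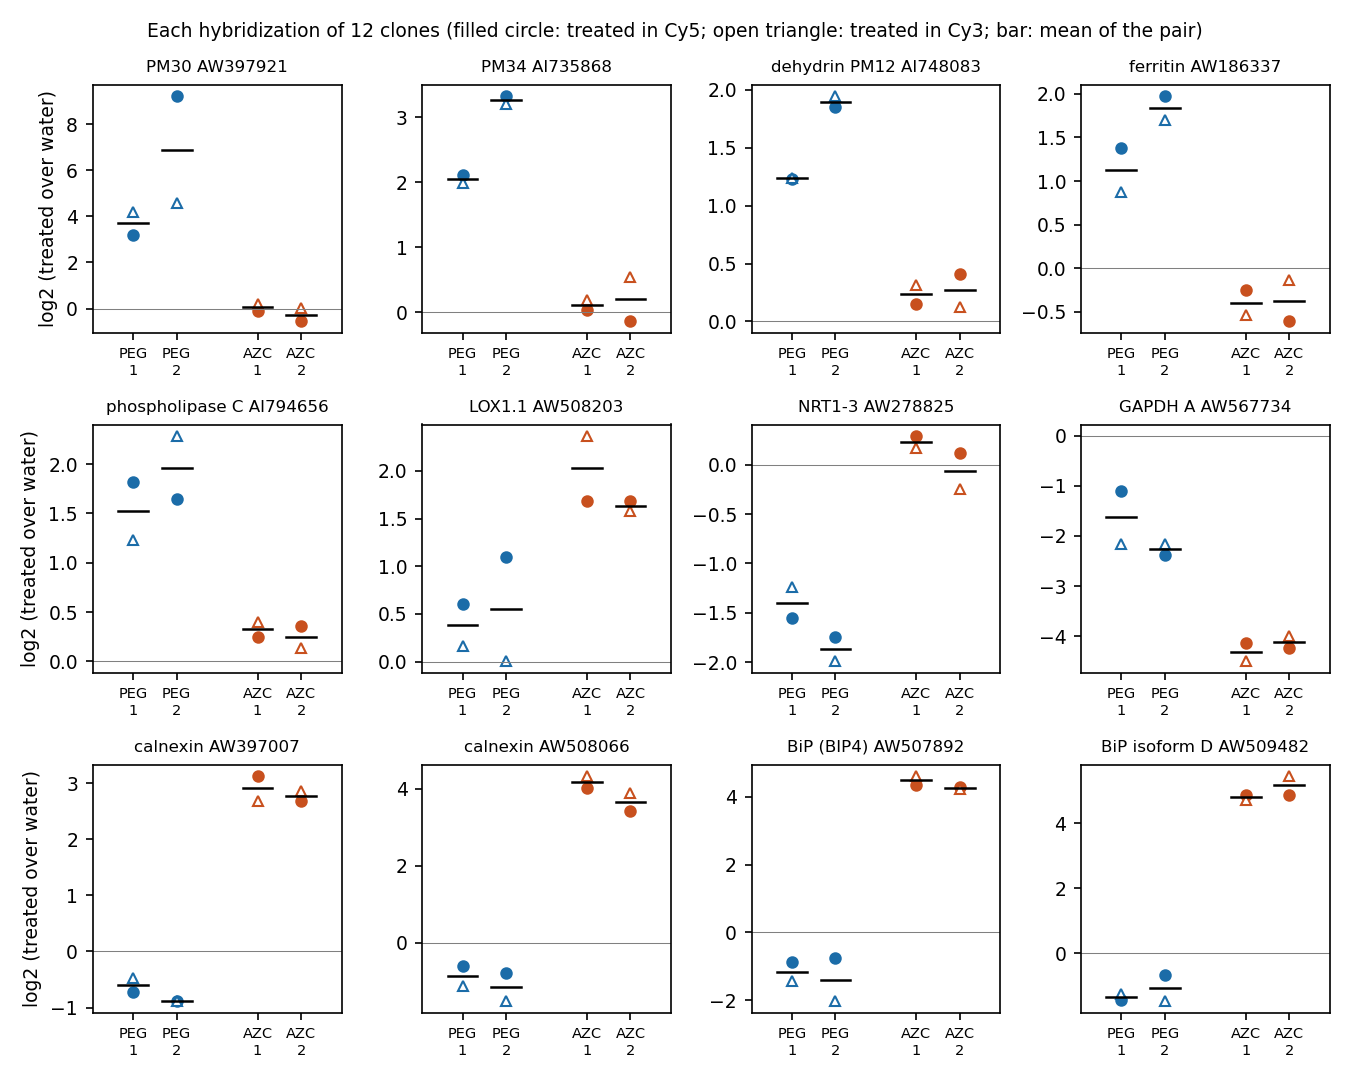
Log2 ratio of treated over water in each of the 8 hybridizations for 12 clones, PEG replicates to the left of AZC replicates, with filled circles for the treated RNA in Cy5, open triangles for Cy3 and bars for the mean of each pair. PM30 spans 3.18 to 9.24 with PEG and −0.56 to 0.20 with AZC, and the 4 chaperone clones have every PEG value below 0 and every AZC value above 2.

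The seed maturation, LEA and dehydrin proteins were, of the gene lists, the one with the most clones higher under PEG. Of 8 tested clones of 8 genes, 4 were higher and none lower, against 2.77% and 2.79% of all clones. The median difference was 0.61, against 0.04 over all clones. PM30, a LEA protein, had ratios of 3.18, 4.20, 9.24 and 4.56 in the PEG hybridizations, against −0.11, 0.20, −0.56 and 0.02 in the AZC hybridizations, so that no PEG value came near an AZC value. Its difference of 5.41 (SE 0.79, adjusted p = 0.00447) was the highest of all clones, and its size depended on the replicate, at 7.01 without PEG replicate 1 and 3.81 without PEG replicate 2. The value of 9.24 came from the hybridization of PEG replicate 2 that was quantified by another method, and with that hybridization left out, a choice made after seeing the data, the difference was 4.24 (adjusted p = 0.000153). With treated RNA in Cy5 alone it was 6.54 (adjusted p = 0.0503). The water RNA of the PEG arrays was above background for PM30 on 2 of 4 hybridizations.

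PM34 (AI735868), another seed maturation protein, had 2.05 and 3.27 in the PEG replicates and 0.11 and 0.20 in the AZC replicates, with a difference of 2.50 (SE 0.33, adjusted p = 0.00289). Here too the water RNA of the PEG arrays was above background on 2 of 4 hybridizations. The dehydrin PM12 (AI748083) had 1.24 and 1.90 under PEG and 0.23 and 0.27 under AZC, with a difference of 1.32 (SE 0.22, adjusted p = 0.00767), which was lost without AZC replicate 1 (adjusted p = 0.0693). PM41 (AW397256), with 1.13 and 0.70 under PEG and 0.20 and 0.10 under AZC, had a difference of 0.77 (SE 0.18, adjusted p = 0.0454), lost without PEG replicate 1 (0.154), AZC replicate 1 (0.2) or AZC replicate 2 (0.24). For each of these 4 clones PEG raised the clone, while the AZC response was not called.

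PM29 (AI940815) was raised by PEG, at 0.48 and 0.52 in its replicates against 0.05 and 0.05 with AZC, but its difference of 0.45 did not pass the test (SE 0.11, adjusted p = 0.0520). PM19, PM37 and PM40 had differences of 0.20, 0.08 and −0.09, none of them called. The remaining clones of the list lacked a ratio in some hybridization. PM9, a LEA protein of group 4 (AW568142), had 2.03, 2.33 and 3.29 in 3 PEG hybridizations and 0.47 to 1.19 in the 4 AZC hybridizations. With 1 orientation taken as enough it had a difference of 1.92 (adjusted p = 0.0150), and a further PM34 clone (AW568206) had 1.25 (adjusted p = 0.00523). On the same terms PM39 AW509471 had 0.89 (adjusted p = 0.0869) and PM23 AI735828 had 0.30 (adjusted p = 0.501), neither of them called. PM34 AI940821, with 4 ratios, had 0.37 and 0.72 with PEG and −0.08 and −0.05 with AZC.

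Of 3 tested clones for aldehyde and epoxide detoxification, from 2 genes, all 3 were higher under PEG, against 2.77% of all clones. The list was chosen with earlier results of these data known, so that the count says nothing beyond these 2 genes. ALDH7B1, an aldehyde dehydrogenase, was spotted in 2 tested clones. AW598015 stood at 0.78 and 1.25 in the PEG replicates, against −0.13 and 0.08 in the AZC replicates (difference 1.04, SE 0.18, adjusted p = 0.00965), and AW508769 at 0.76 and 1.37, against −0.42 and −0.10 (difference 1.32, SE 0.23, adjusted p = 0.0117). The epoxide hydrolase clone AW568104 had 0.86 and 1.31 under PEG and −0.01 and 0.15 under AZC (difference 1.02, SE 0.19, adjusted p = 0.0155). The groups did not overlap in any of the 3 clones, but this held for every called clone and for 1930 of all 3902 tested. In this order, the differences were 0.94, 1.17 and 0.933 without AZC replicate 1. They were 0.811, 1.02 and 0.794 without PEG replicate 2. All 3 calls were lost in both cases, and that of the epoxide hydrolase also without AZC replicate 2. A second clone of the epoxide hydrolase gene (AW164476) lacked a ratio in 1 PEG hybridization and had −0.02 to 0.29 in the other 3, against −0.40 to 0.02 in the 4 AZC hybridizations. With 1 orientation taken as enough its difference was 0.32 and was not called (adjusted p = 0.414).

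In the list of antioxidant defence and iron, 1 of 10 tested clones was called, against 5.56% of all clones, and the median difference was 0.08. That clone was ferritin (AW186337), the iron storage protein of plastids, with 1.12 and 1.84 in the PEG replicates and −0.40 and −0.37 in the AZC replicates, a difference of 1.87 (SE 0.29, adjusted p = 0.00556). PEG raised it and the AZC response was not called. The call was lost without PEG replicate 2 (difference 1.51, adjusted p = 0.0562). The other ferritin gene, H-1, had a clone (AW101901) at −0.03 and 0.09 under PEG and −0.18 and 0.06 under AZC, which was not called, and a clone without a ratio in 1 hybridization (AW279016) at 0.49 to 1.37 with PEG and −0.30 to 0.33 with AZC. With 1 orientation taken as enough, AW279016 had a difference of 1.04 and was called (adjusted p = 0.0402).

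Glutathione S-transferases, which join glutathione to toxic compounds, varied by gene. GSTU41 (AW397276) was raised by both treatments, to 1.12 and 1.17 in the PEG replicates and 0.42 and 0.72 in the AZC replicates, and its difference of 0.58 was not called (SE 0.16, adjusted p = 0.0738). GSTF5 was lowered by AZC alone (0.03 and −0.14 under PEG, −0.52 and −0.40 under AZC, difference not called at an adjusted p of 0.215). GSTU30, GSTU3, the peroxidases PRX2 and PRX3, DHAR3, which regenerates ascorbate, and the superoxide dismutase SODB had differences between −0.32 and 0.57 and were not called. GSTa (AW459775), which lacked a ratio in 1 AZC hybridization, had 0.45 to 1.52 in the PEG hybridizations and −0.12 to 0.17 in 3 AZC hybridizations. With 1 orientation taken as enough, its difference was 0.92 and was called (adjusted p = 0.0205).

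**Figure D3:**
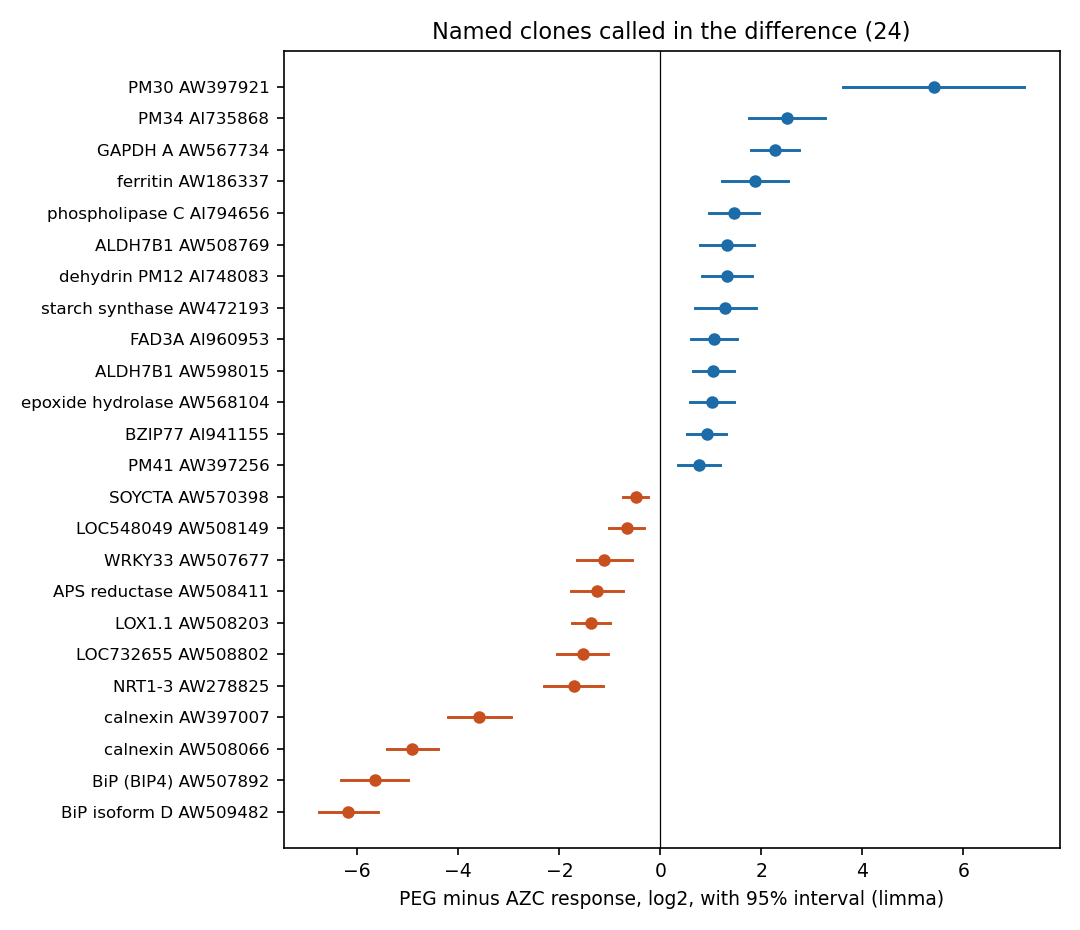
PEG minus AZC response on the log2 scale for the 24 named clones that were called, with 95% intervals from limma, blue where PEG was higher and orange where it was lower. The 4 chaperone clones lie between −6.17 and −3.58 and PM30 at 5.41 with the widest interval (3.61 to 7.21).

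Genes of nitrogen and sulfur assimilation held 2 calls, both lower under PEG. Of 8 tested clones, 2 were lower under PEG and none higher, against 2.79% and 2.77% of all clones. The median difference was −0.34. NRT1-3, a nitrate transporter (AW278825), had −1.40 and −1.87 in the PEG replicates, against 0.23 and −0.06 in the AZC replicates, with a difference of −1.72 (SE 0.26, adjusted p = 0.00479). The replicates of PEG were both far below those of AZC, which lay around 0. The adjusted p was 0.0576 without PEG replicate 2 and 0.0515 without AZC replicate 1. A second NRT1-3 clone (AI960849) had −1.0 and −1.91 under PEG and −0.41 and −0.30 under AZC, a difference of −1.10 that was not called (SE 0.29, adjusted p = 0.0646).

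The other called clone was 5-adenylylsulfate reductase (AW508411), which reduces activated sulfate, at −0.88 and −1.15 under PEG and −0.01 and 0.49 under AZC. Its difference was −1.26 (SE 0.23, adjusted p = 0.0134), lost without PEG replicate 2 (adjusted p = 0.125) or AZC replicate 2 (adjusted p = 0.0969). A second clone of the same gene (AI938516) had a difference of −0.34 and was not called. A further clone (AW568340) had ratios in PEG replicate 1 alone, at −0.41 and 0.05, against −0.36 to 0.11 in the 4 AZC hybridizations. Glutamine synthetase GS-2, which fixes ammonium, fell under both treatments in 1 of its 2 tested clones. Its clone AI736144 fell to −0.94 and −1.43 in the PEG replicates and to −0.91 and −1.36 in the AZC replicates, both responses being called, and the difference was −0.05 with a 95% interval of −0.53 to 0.42. The tested clones of EU3 and OAS-TL1 had differences of −0.13 and −0.01, and neither response of either was called. Among clones that lacked a ratio, a further EU3 clone (AW568823) had −0.40 to −0.01 in 3 PEG hybridizations and −0.92 to −0.49 in the 4 AZC hybridizations, and with 1 orientation taken as enough its difference was 0.46 (adjusted p = 0.205), while that of SIR AW317859 was 0.01 (adjusted p = 0.993).

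Several clones of photosynthesis and carbon metabolism fell under both treatments. The clone of a chlorophyll a/b-binding protein (AW472492), the light-harvesting antenna, had −4.73 and −4.97 in the PEG replicates and −4.44 and −5.47 in the AZC replicates. Both responses were called and overlapped, and the difference of 0.11 had a wide 95% interval, from −1.57 to 1.79. It was the only tested clone of light harvesting and photosystems with a name in the platform's table. The study lists further such clones among those that every treatment repressed. The antenna is a marker of green tissue, and the water RNA was above background for this clone on 4 of 4 hybridizations of both treatments. PSAD, a subunit of photosystem I that lacked a ratio in 1 hybridization, had 0.17 to 0.72 with PEG and −0.05 to 0.53 with AZC.

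A Calvin cycle enzyme, glyceraldehyde-3-phosphate dehydrogenase (GAPDH A subunit), fell to different depths. Its clone AW567734 fell to −1.63 and −2.27 in the PEG replicates and to −4.32 and −4.11 in the AZC replicates, so that the difference was 2.27 (SE 0.21, adjusted p = 0.000701), kept with each replicate left out. A second clone that the platform's table gives the same gene, AW508802, moved the other way, with −1.75 and −1.32 under PEG and −0.16 and 0.17 under AZC, a difference of −1.54 (SE 0.22, adjusted p = 0.00433), which was not called with treated RNA in Cy5 alone (adjusted p = 0.184). The study's own clone list gives this clone no function, so that its assignment is uncertain. It was the only one of 26 genes with several tested clones whose clones were called in opposite directions.

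Granule-bound starch synthase, which makes amylose, was spotted in 4 tested clones. AZC lowered all 4 and PEG lowered 3, against 4.61% and 6.23% of all clones, while the PEG response of AW508018 was not called. The study lists AW508018 among the clones repressed by every treatment. AW472193 stood at −2.54 and −3.16 in the PEG replicates, against −4.48 and −3.79 in the AZC replicates, and its difference of 1.29 was called (SE 0.26, adjusted p = 0.0242). The call was lost without PEG replicate 1 (adjusted p = 0.108) or AZC replicate 1 (0.188), and in the hybridizations with treated RNA in Cy3 alone the difference was 0.67 (adjusted p = 0.301). AW472190 had −1.88 and −2.68 under PEG and −3.35 and −2.82 under AZC, with a difference of 0.80 that was not called (adjusted p = 0.183). AI940891 and AW508018 had differences of −0.30 and 0.37, neither of them called. The beta-amylase BMY1 had a difference of −0.02.

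Among the 7 tested clones of genes that make and desaturate fatty acids, 1 was called, against 5.56% of all clones. The median difference was 0.17. FAD3A, the desaturase that makes linolenic acid (AI960953), fell to −0.57 and −0.95 in the PEG replicates and to −1.94 and −1.71 in the AZC replicates, with a difference of 1.06 (SE 0.20, adjusted p = 0.0155). Both responses were called and the fall was the deeper under AZC. The call was lost without PEG replicate 1 (adjusted p = 0.0862), AZC replicate 1 (0.152) or AZC replicate 2 (0.0509), and in the scanner files after normexp and loess the difference was 1.66. A further FAD3A clone (AW318139) had ratios in PEG replicate 1 alone, at −0.09 and −0.03, against −0.52 to −0.04 in the 4 AZC hybridizations. FAD2-3, which makes linoleic acid, fell under both treatments in 2 clones, with PEG replicates at −0.60 to −1.06 and AZC replicates at −0.76 to −0.91, and differences of 0.03 and 0.17 that were not called. ACPD, an acyl carrier protein desaturase with a difference of −0.02 in clone AI941223, stood in another clone that lacked a ratio in 1 PEG hybridization (AW509087) at −0.08 to 0.09 with PEG and −1.17 to −0.60 with AZC. With 1 orientation taken as enough, AW509087 had a difference of 0.83 and was called (adjusted p = 0.0356).

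Of 11 tested clones of phenylpropanoid and isoflavonoid synthesis, limma called 0 in the difference, against 5.56% of all clones. Before adjustment, 2 higher and 0 lower had a p under 0.05, against 346 and 296 of all 3902 clones. The nearest was F3H, flavanone 3-hydroxylase (AW277481), with −0.18 and −0.28 in the PEG replicates and −1.76 and −0.86 in the AZC replicates. AZC lowered it and the PEG response was not called, while the difference of 1.08 did not pass (SE 0.27, adjusted p = 0.0529). It passed in 6 of 24 alternatives, and over all 24 it ran between 0.63 and 2.21. CHS1, CHI1B1, 3 clones of CHI3A1, IFR1 and DFR1 had differences of −0.10 to 0.36.

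Among lipoxygenases, wound and defence genes, 1 of 11 tested clones was called, against 5.56% of all clones. LOX1.1, a lipoxygenase that oxidizes polyunsaturated fatty acids (AW508203), rose to 0.39 and 0.55 in the PEG replicates and to 2.03 and 1.63 in the AZC replicates, with a difference of −1.36 (SE 0.17, adjusted p = 0.00171). Both treatments raised the clone, and AZC by more. The call held without each replicate, but in the hybridizations with treated RNA in Cy5 alone the difference was −0.84 (adjusted p = 0.106). A second LOX1.1 clone (AW509088) had a difference of −0.08, and the clones of LOX2, LOX3, LOXB1, VLXC, the vegetative storage proteins VSPA and VSPB, the inhibitor D-II and the trypsin inhibitor KTI3 had −0.29 to 0.13. A further LOX1.1 clone (AI748749) lacked a ratio in 1 PEG hybridization. With 1 orientation taken as enough its difference was −0.10 and was not called (adjusted p = 0.831).

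**Figure D4:**
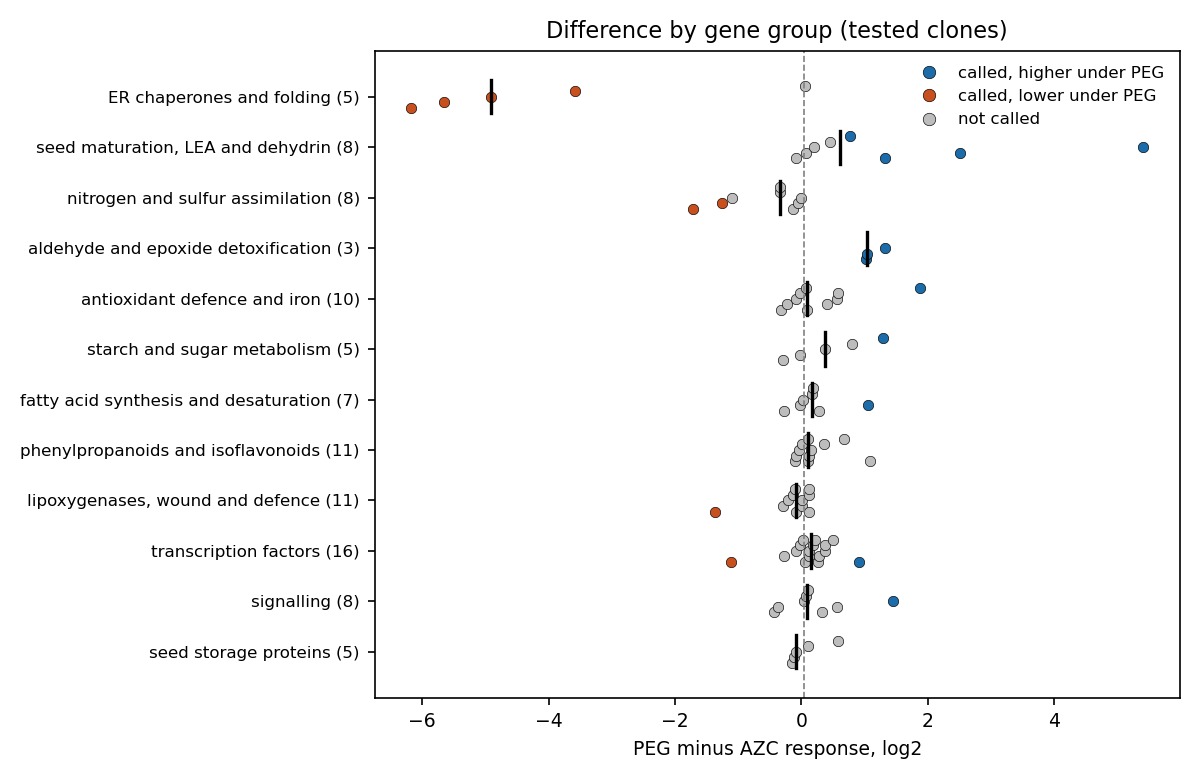
PEG minus AZC response on the log2 scale for the tested clones of 12 gene groups, with the number of clones in brackets, blue for clones called higher under PEG, orange for clones called lower and grey for the others. Bars mark the median of each group and the dashed line the median of all 3902 clones, 0.04; 4 of 5 chaperone clones lie far to the left and 4 of 8 seed maturation clones to the right.

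Transcription factors were tested in 16 clones of 15 genes, of which 1 was higher and 1 lower. Over all 182 named clones tested, 13 were higher and 11 lower, and calls reached 5.56% of all clones. BZIP77, a factor of the basic leucine zipper family (AI941155), had 0.80 and 1.0 in the PEG replicates and −0.08 and 0.06 in the AZC replicates, with a difference of 0.92 (SE 0.17, adjusted p = 0.0155). WRKY33, of a family known for defence responses (AW507677), had −0.20 and −0.47 under PEG and 0.93 and 0.62 under AZC, with a difference of −1.11 (SE 0.24, adjusted p = 0.0297). PEG raised BZIP77 and AZC raised WRKY33, while the other response of each was not called. Neither call held with each replicate left out: the adjusted p of BZIP77 was 0.126 without PEG replicate 2, 0.152 without AZC replicate 1 and 0.0638 without AZC replicate 2, and that of WRKY33 was 0.0683 to 0.234 with any replicate left out. In WRKY33 the hybridization of PEG replicate 2 with treated RNA in Cy5 stood at −0.72, against −0.23 to −0.19 in the other 3 PEG hybridizations.

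A pair of other factors moved in 1 direction under both treatments. NAC3 (AW457909), of a plant family of stress and senescence regulators, rose to 0.89 and 1.36 in the PEG replicates and to 0.74 and 1.27 in the AZC replicates, with a difference of 0.12 (95% interval −0.39 to 0.63). HDL56, a homeodomain leucine zipper protein (AW508928), fell to −1.64 and −1.52 with PEG and to −1.70 and −1.99 with AZC, with a difference of 0.26 (95% interval −0.12 to 0.65). For both genes the 2 responses were called and the difference was not. NAC2 and BZIP121 were raised by PEG and not called under AZC, but their differences of 0.37 and 0.50 were not called either (adjusted p = 0.114 and 0.165), and MYBZ2, lowered by AZC, had a difference of 0.37 (adjusted p = 0.225).

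In signalling, 1 of 8 tested clones was called, against 5.56% of all clones. Phospholipase C (AI794656), which cleaves membrane phosphoinositides into second messengers, had 1.52 and 1.96 in the PEG replicates and 0.33 and 0.25 in the AZC replicates, with a difference of 1.46 (SE 0.22, adjusted p = 0.00488). PEG raised it and the AZC response was not called. The adjusted p without PEG replicate 2 was 0.0572. The calmodulins SCAM-2 and SCAM-3, the 14-3-3 proteins GF14A and GF14C, the G protein subunit GPA1 and the kinases PPCK2 and PPCK3 had differences between −0.44 and 0.56. MIPS, which makes inositol phosphate (AI941146), fell to −1.05 and −1.36 under PEG and to −1.46 and −0.95 under AZC, and its difference of −0.00 had a 95% interval from −0.43 to 0.43.

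The remaining lists held few or no calls, against 5.56% of all clones. Of 5 clones of seed storage proteins, markers of the tissue of the clone libraries, limma called 0, with 1 higher and 0 lower before adjustment, and the differences ran over −0.15 to 0.58. Of 5 clones of vacuolar and other proteases it called 0 (1 higher and 0 lower unadjusted). Of the 2 named clones of ubiquitin-conjugating enzyme UBC4 and proteasome subunit PAA1 it called 0 (0 and 0 unadjusted). These 2 do not cover protein degradation on the array, since the study also lists a CDC48-like clone as raised by AZC and lowered by PEG. The last 2 called named clones were SOYCTA (AW570398), at −0.69 and −0.59 under PEG and −0.14 and −0.16 under AZC (difference −0.49, SE 0.11, adjusted p = 0.0380), and LOC548049 (AW508149), at −0.28 and −0.46 under PEG and 0.31 and 0.29 under AZC (difference −0.67, SE 0.15, adjusted p = 0.0384). A second tested clone of LOC548049 had a difference of 0.007 and was not called. Both calls were lost with any replicate left out, at adjusted p values of 0.0882 to 0.276 for SOYCTA and 0.068 to 0.246 for LOC548049.

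Of the called clones, 95 of the 108 higher and 98 of the 109 lower under PEG have no name in the platform's table. The same holds for 3720 of all 3902 clones tested, a larger share. The 7 clones that PEG raised and AZC lowered were all without a name. Of the 26 genes spotted in several tested clones, 8 had a called clone, and 1, ALDH7B1, had every tested clone called in 1 direction. A spotted cDNA can bind RNA of close relatives, so that the value of a clone may be shared among members of a family such as the BiP genes.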

How the data were processed

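The 12 hybridizations were made on spotted cDNA arrays of 5760 clones, and the 8 with PEG or AZC were compared. Scanner intensities were deposited by the authors unnormalized, as spot and local background means quantified in ScanArray Express per the file headers. Log2 ratios of treated over control were deposited by the authors after background subtraction and LOWESS normalization. The study gives its ratios on this scale and in this direction, and the deposited table was checked against the scanner files, with which it ran the same way in all hybridizations but the exchanged pair of PEG replicate 1.

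The 2 orientations of a biological replicate were averaged, and the 6 resulting values of PEG, AZC and tunicamycin were fitted per clone with limma 3.58.1 in R 4.3.3 (intensity trend, Benjamini-Hochberg adjustment over 3902 clones, threshold 0.05). Tunicamycin entered only the spread, and 9 tested clones had no tunicamycin value and 439 had 1. Clones needed a ratio in all 8 hybridizations and a signal above the local background by 2 SD on 3 of 4 hybridizations of at least 1 RNA group, which removed no clone. With 2 values against 2, an exact permutation test could not go below p = 0.333. The study describes the biological replicates as independent, and the number of arrays limits the precision.

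Gene names came from the platform's table, which names 253 spots, 182 of them tested. Named in full were the called clones with 1 gene name, the clones of fixed gene lists, and named clones called with opposite sign in both responses, while several further genes were named after their values were seen. The gene lists and members were chosen with earlier results of these data known. Alternatives covered background correction, normalization, filters, dye orientation, a 2-sample t-test of the replicate values (the methods' t-test set each treatment's ratios against 0 and was not run) and each replicate left out. The fitting steps were tested on simulated data. No genome build applies, and no coordinates were used.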

Additional observations from a re-analysis of the deposited data

Results flagged for a closer look

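Among 194 groups of 4 hybridizations, from 97 clones followed by name in the PEG or AZC response, 8 held a hybridization far from the other 3, and chance flags about 1 in 20 groups. With PEG, the outlying log2 ratio was −0.269 for CHI3A1 AI940917 in replicate 2 with treated RNA in Cy5, against 0.181 to 0.229 in the others. In the same hybridization WRKY33 AW507677, whose difference was called, stood at −0.718, against −0.228 to −0.193. In PEG replicate 1 with treated RNA in Cy5, FAD2-1 AW460032 stood at 0.683, against 0.112 to 0.16.

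With AZC, LOX1.1 AW508203, called lower under PEG, stood at 2.37 in replicate 1 with treated RNA in Cy3, against 1.58 to 1.69 in the others. ALDH7B1 AW508769, called higher under PEG, stood at 0.181 in replicate 2 with treated RNA in Cy5, against −0.442 to −0.388. In that hybridization GS-2 AI736144 stood at −1.72, against −0.994 to −0.897. FAD2-3 AW100780 stood at −0.683 in replicate 2 with treated RNA in Cy3, against −0.93 to −0.902, and DHAR3 AW186212 at −0.0262 in replicate 1 with treated RNA in Cy5, against −0.122 to −0.108.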

How the results depend on the processing

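With 1 replicate left out, the clones called in the difference numbered 96 (without AZC replicate 1) to 198 (without PEG replicate 1), with 49 to 103 higher and 47 to 95 lower, while those called in the PEG response ran over 203 to 446 and in the AZC response over 145 to 367. Single hybridizations with a dye term called 348 clones (171 higher, 177 lower) and 741 in the PEG response. Treated RNA in Cy5 alone called 108 (62 higher, 46 lower) and 198 in the AZC response, and normexp with median centring, which moved the median of all clones by −0.123, called 995 in the AZC response. A 2-sample t-test of the replicate values, put in place of the methods' t-test of each treatment's ratios against 0 with a fold cutoff (not run here), called 483 at 5% (265 higher, 218 lower) and 0 after adjustment (0 higher, 0 lower), where limma called 217. The replicate numbers did not pair the samples (r between same-numbered PEG and AZC deviations −0.085), and a replicate block gave 105 higher and 111 lower, of which 194 were shared with the calls without it. The scanner files of PEG replicate 1 as listed, an alternative added after seeing the data like PEG replicate 2 from Cy3 and the second quantitation day, called 9 (0 higher, 9 lower), 0 in the PEG response and 38 in the AZC response. They reversed PM34 AI735868 (−0.00418), PM12 (−0.181), SOYCTA (0.206), epoxide hydrolase (−0.207), PM41 (−0.536), phospholipase C (−0.582) and AW508802 (0.292). With the files as listed, the ratios of PEG replicate 1 ran opposite to the deposited ones. In the other alternatives no named called clone reversed. Of the 24 called named clones, 6 kept the call with each replicate left out and in every other alternative in which they were tested but that t-test and the files as listed, namely both BiP clones, calnexin AW508066 and AW397007, GAPDH A AW567734 and PM34 AI735868, which the filter requiring signal in every RNA group left untested. The cause of these shifts was not tested.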
